A study of Astyanax mexicanus with 20 samples.

Results

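Activator protein 1 (AP-1) is the collective name for transcription factors built from pairs of basic leucine zipper proteins of the Fos, Jun and ATF families. Fos proteins bind DNA only as partners of another family member such as a Jun protein, whereas Jun proteins can also pair with each other. In mammals several of these genes are immediate early genes, switched on by growth factors, stress and injury through MAP kinases and serum response factor without new protein synthesis. The make-up of the pairs matters there, because Fosl1 and Fosl2 lack the strong activation domain of Fos and Fosb, and JunB and JunD activate growth genes less than Jun does.

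The AP-1 subunits were taken by gene name from a deposited table of transcript abundances in TPM, a unit that corrects for transcript length and adds up to the same total in each library. Of 10 listed names 9 were found, each with 1 identifier, among 27420 genes: fosab, fosb, fosl1a, fosl1b, fosl2, junba, junbb, jund and atf3. The name jun was not matched and that gene is not analysed here. All 9 passed the filter for testing, a level of 1 TPM or more in 2 libraries or more, as did 16884 genes in all. fosl1a and fosl1b were below 1 TPM in every control library. They passed only through injured libraries, 10 and 11 of them. The counts of called subunits and the subunit medians below include both. The estimates share out reads that fit several genes, so levels of the paired copies fosl1a and fosl1b, and junba and junbb, may hold some reads of each other.

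The tissue was skeletal muscle of the fish Astyanax mexicanus, from a cave-dwelling and a river-dwelling surface form, in 20 libraries of polyadenylated RNA. Injured muscle had received cardiotoxin, a snake venom toxin that destroys muscle fibres, and was taken 1, 7 or 14 days post injury (dpi), with 3, 2 and 2 libraries per form. Controls, 3 libraries per form, had received phosphate-buffered saline. The labels give no day for them, so injected and control muscle may differ in time after injection. The labels note free-running darkness for all 8 groups, and the design text speaks of sampling around a day-night cycle, but the hour of collection is given for no library and was not used. Whether the replicates of a group are separate fish is not stated. The p-values therefore rest on the spread among libraries, part or all of which may be technical. All 23 muscle fibre marker genes matched were above 0 in every library.

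Levels below are TPM divided by a library scaling factor (scaled TPM) and can be compared between genes, since TPM is corrected for transcript length. Changes are differences of log2(scaled TPM + 1) with the standard error (SE) of the limma model, which understates changes of genes near 0. A gene was called at a limma p below 0.05 after Benjamini-Hochberg adjustment over all genes tested. Between 11150 and 15146 genes per library reached 1 TPM, and replicates correlated at 0.942 to 0.981. The scaling factors ran from 0.595 to 1.92. Without them the median change of all genes moved to 0.57 at 1 dpi in surface fish and 0.40 in cave fish, against 0.02 and 0.04 with them. The calls then split into 5783 higher and 190 lower in surface fish, against 1410 and 1082 with scaling, and into 4307 and 219 in cave fish, against 2659 and 1532. Cave 1 dpi replicate 3 and cave control replicate 2 stood apart in 21 keratinocyte marker genes, which summed to 10355 and 2609 scaled TPM. Surface 1 dpi replicate 2 reached 2482, and the other 17 libraries 371 to 1228.

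At 1 dpi most AP-1 subunits changed against controls: in both forms fosl1a, fosl1b, fosl2, junba and junbb rose and jund fell. In cave fish at 1 dpi 6 of 9 subunits were called against cave controls, 5 higher and 1 lower, where 24.8% of all genes were called (15.7% higher, 9.07% lower). Surface fish at 1 dpi had 7 of 9 called against surface controls, 6 higher and 1 lower, where 14.8% of all genes were called (8.35% higher, 6.41% lower). The median change of the subunits was 1.08 in cave fish and 1.61 in surface fish. Both medians include fosl1a and fosl1b, which passed the filter only through injured libraries. In bulk tissue, fewer cells of a type and less RNA per cell cannot be told apart, and this holds for every change below.

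**Figure D1:**
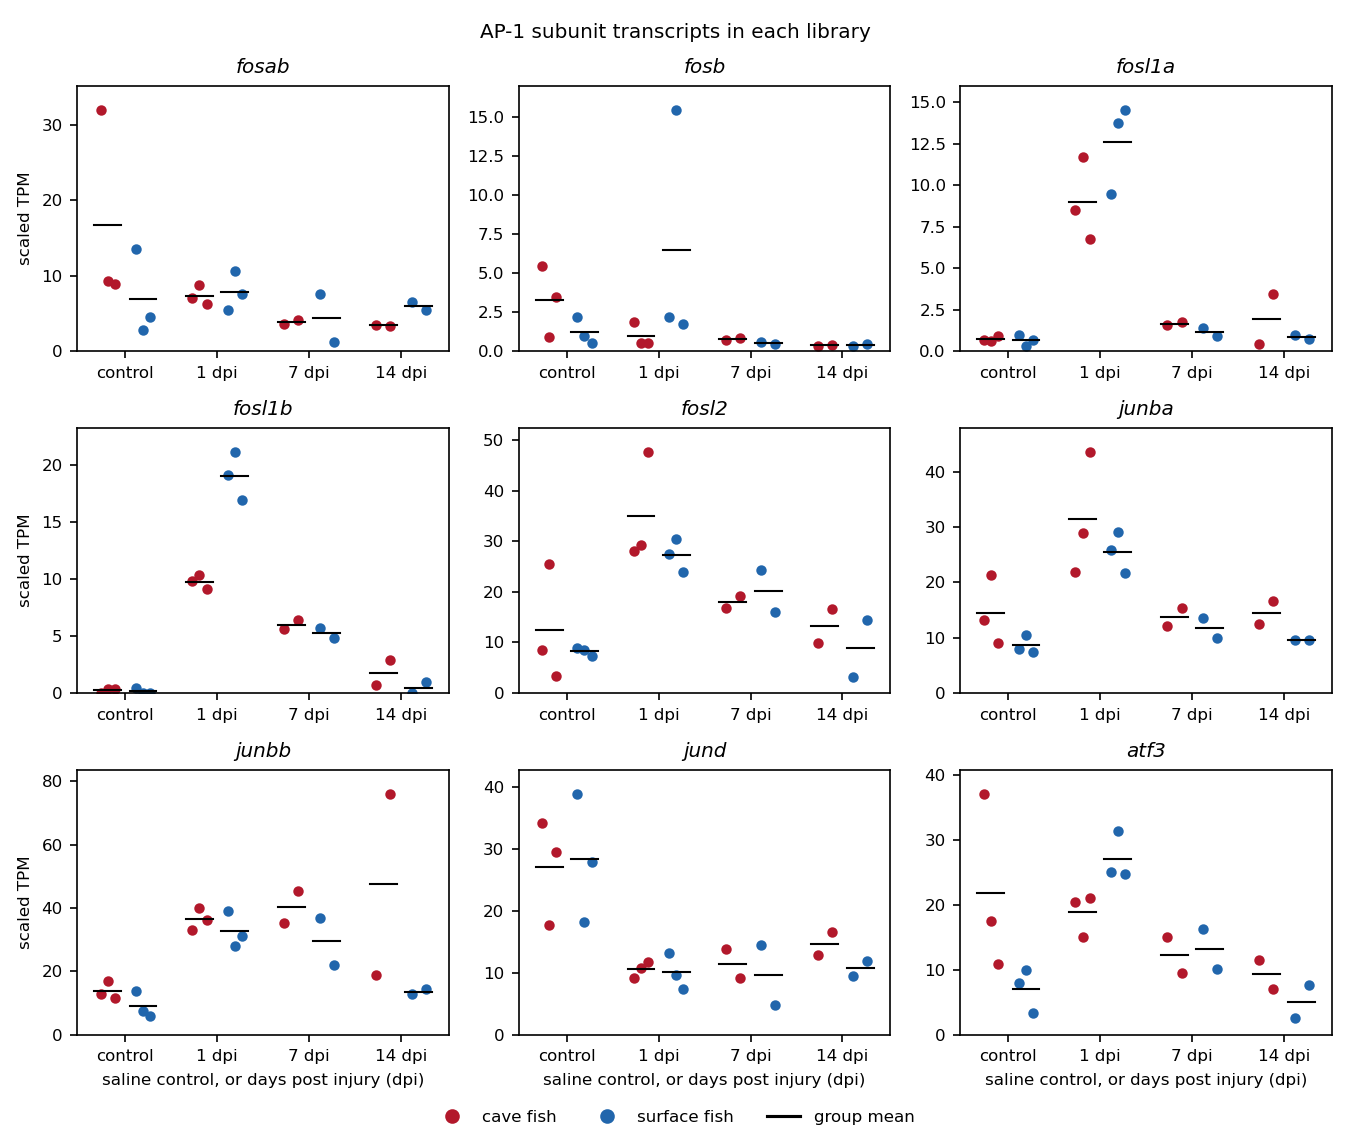
Scaled TPM of the 9 AP-1 subunits (vertical axes, from 0) in each library of the saline controls and at 1, 7 and 14 dpi. Red points are cave libraries, blue points surface libraries, and black lines group means. fosl1a and fosl1b stand near 0 in controls and peak at 1 dpi, junbb stays high at 7 dpi, and jund is highest in controls.

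Among the Fos genes, the classical immediate early members were not called at any stage on the scaled values. fosab (ENSAMXG00000013765), the counterpart of mammalian Fos, had 31.9, 9.24 and 8.87 scaled TPM in cave controls, 7.01, 8.74 and 6.32 at 1 dpi, 3.57 and 4.10 at 7 dpi, and 3.52 and 3.39 at 14 dpi. Surface fish had 13.5, 2.84 and 4.54 in controls, 5.41, 10.7 and 7.59 at 1 dpi, 7.52 and 1.21 at 7 dpi, and 6.51 and 5.48 at 14 dpi. On these scaled values every injured cave library lay below every cave control library, the closest at 8.74 against 8.87. Surface controls spanned the injured libraries apart from surface 7 dpi replicate 2. The limma change at 1 dpi was -0.85 (SE 0.53, adjusted p = 0.275) in cave fish and 0.35 (SE 0.53, adjusted p = 0.727) in surface fish. Before scaling, the cave 1 dpi libraries, at 9.02, 14.3 and 7.92 TPM, overlapped the cave controls, at 32.7, 9.53 and 7.42 TPM. The unscaled changes at 1 dpi were -0.37 (limma adjusted p = 0.656) in cave fish and 1.05 (limma adjusted p = 0.139) in surface fish.

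fosb (ENSAMXG00000037476), a second strong activator of the family, was low in most libraries and uneven between replicates. In cave fish at 1 dpi it had 1.85, 0.530 and 0.502 scaled TPM, against 5.46, 0.941 and 3.44 in controls. In surface fish at 1 dpi it had 2.22, 15.4 and 1.73, against 2.21, 1.00 and 0.499 in controls. The level of 15.4 belongs to surface 1 dpi replicate 2, the surface library highest in keratinocyte markers, and the part of these markers in it was not tested. At 7 and 14 dpi fosb lay between 0.353 and 0.853 in all 8 libraries. The limma change at 1 dpi was -1.03 (SE 0.56, adjusted p = 0.198) in cave fish and 1.302 (SE 0.56, adjusted p = 0.133) in surface fish, and 0.48 in surface fish without that library. On unscaled TPM the surface change was 1.85 and was called (limma adjusted p = 0.0171).

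The 2 fosl1 copies, counterparts of mammalian Fosl1 (Fra-1), showed the largest changes of the family at 1 dpi. fosl1a (ENSAMXG00000037420) had 8.50, 11.7 and 6.77 scaled TPM in cave fish at 1 dpi, against 0.683, 0.621 and 0.908 in cave controls. Surface fish had 9.48, 13.7 and 14.5 at 1 dpi, against 0.990, 0.345 and 0.688 in controls. The injured and control libraries were far apart in both forms, with every control below 1. The rise was 2.50 (SE 0.31, limma adjusted p = 4.69e-05) in cave fish and 3.02 (SE 0.31, limma adjusted p = 7.37e-05) in surface fish.

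fosl1a was not called against controls at 7 dpi, with changes of 0.61 (SE 0.35, limma adjusted p = 0.304) in cave fish and 0.38 (SE 0.35, limma adjusted p = 0.595) in surface fish. It had 1.55 and 1.75 scaled TPM at 7 dpi in cave fish and 1.42 and 0.916 in surface fish. Both cave libraries lay above every cave control, the highest of which was 0.908, while the surface libraries overlapped their controls. Measured between injured stages, 7 dpi against 1 dpi, it fell by 1.89 in cave fish (SE 0.35, limma adjusted p = 0.00341) and by 2.63 in surface fish (SE 0.35, limma adjusted p = 0.00102). At 14 dpi it had 0.464 and 3.42 in cave fish and 0.975 and 0.725 in surface fish, so 1 cave library exceeded every 7 dpi library.

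fosl1b (ENSAMXG00000006076) was listed at 0 in cave control replicate 1 and surface control replicates 2 and 3, and at 0.339 to 0.422 scaled TPM in the other 3 controls. At 1 dpi it had 9.84, 10.4 and 9.17 in cave fish and 19.2, 21.2 and 16.9 in surface fish. At 7 dpi 5.63 and 6.38 remained in cave fish and 5.74 and 4.86 in surface fish. The 1 dpi rise was 3.13 (SE 0.28, limma adjusted p = 4.47e-06) in cave fish and 4.15 (SE 0.28, limma adjusted p = 1.31e-06) in surface fish. No fold is given, since some controls are listed at 0.

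fosl1b was also called at 7 dpi in both forms. It was higher at 7 dpi by 2.51 (SE 0.31, limma adjusted p = 0.000366) in cave fish and 2.48 (SE 0.31, limma adjusted p = 0.000878) in surface fish, with no overlap between injured and control libraries. At 14 dpi cave fish had 0.710 and 2.88, and surface fish had 0 and 0.936. The cave change of 1.07 (SE 0.31, limma adjusted p = 0.0430) passed the threshold and the surface change of 0.31 (SE 0.31, limma adjusted p = 0.828) did not. Without cave 14 dpi replicate 2 the cave change was 0.47 (adjusted p = 0.446), and neither the difference of the responses, 0.76 (SE 0.44, limma adjusted p = 0.427), nor that of the 14 dpi levels, cave minus surface 0.89 (SE 0.34, limma adjusted p = 0.0976), was called.

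fosl2 (ENSAMXG00000043526), counterpart of mammalian Fosl2 (Fra-2), was the most abundant Fos transcript in most libraries. Cave fish had 8.56, 25.6 and 3.41 scaled TPM in controls, 28.1, 29.2 and 47.7 at 1 dpi, 16.7 and 19.2 at 7 dpi, and 9.86 and 16.6 at 14 dpi. Surface fish had 9.0, 8.43 and 7.38 in controls, 27.6, 30.5 and 24.0 at 1 dpi, 24.3 and 16.0 at 7 dpi, and 3.26 and 14.4 at 14 dpi. At 1 dpi no library overlapped its controls, although cave control replicate 2, at 25.6, came close to the lowest injured library, at 28.1.

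fosl2 rose at 1 dpi by 1.75 (SE 0.52, limma adjusted p = 0.0223) in cave fish and by 1.61 (SE 0.52, limma adjusted p = 0.0483) in surface fish. The highest cave control and the highest cave 1 dpi level belong to the libraries rich in keratinocyte markers. Without both, the cave change was 2.19 (SE 0.48, adjusted p = 0.00804). The cave call was lost without cave control replicate 1, cave control replicate 3 or cave 1 dpi replicate 3, with changes of 1.13 to 2.43 over all single omissions. The surface call was lost in 16 of 20 omissions of a single library, the adjusted p running from 0.0157 to 0.128, and with replicate numbers as blocks (adjusted p = 0.0653).

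**Figure D2:**
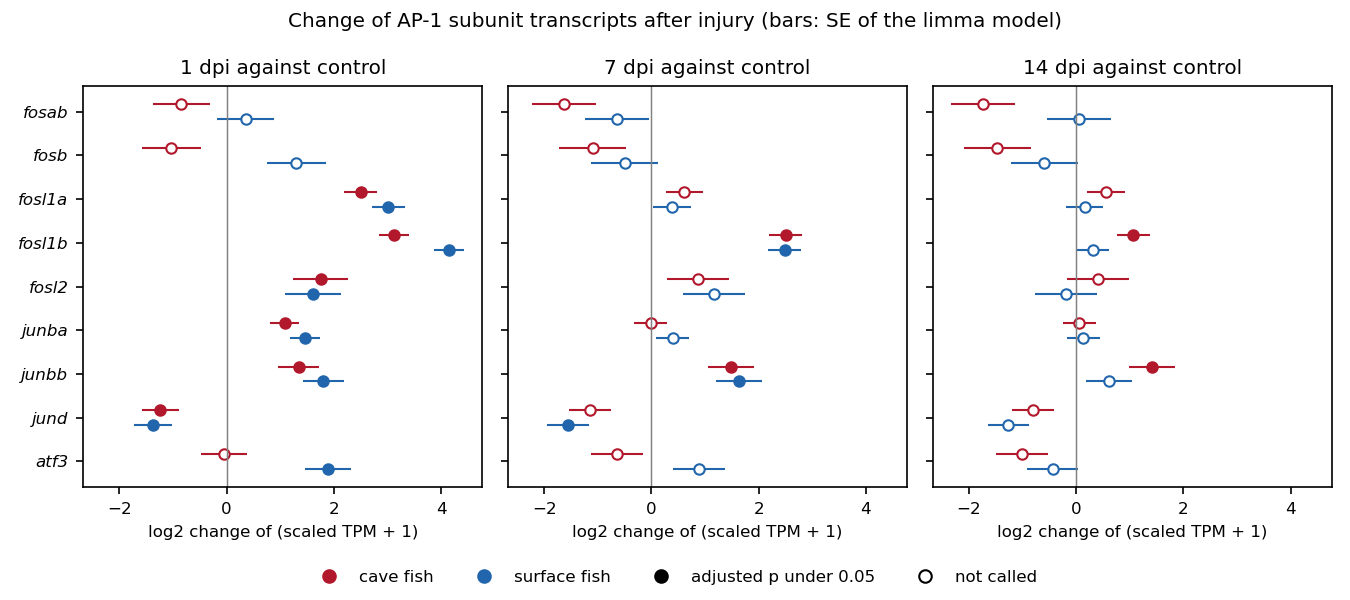
Change of each AP-1 subunit against the saline controls of its form at 1, 7 and 14 dpi (horizontal axes, difference of log2(scaled TPM + 1)), in cave fish (red) and surface fish (blue). Bars are the limma SE, and filled points passed the adjusted threshold. At 1 dpi the filled points number 6 in cave fish and 7 in surface fish, with jund the one to the left of 0.

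The Jun genes split into rising and falling members. junba (ENSAMXG00000025030), 1 of 2 counterparts of mammalian JunB, had 21.9, 29.0 and 43.6 scaled TPM in cave fish at 1 dpi, against 13.2, 21.3 and 9.13 in controls. Surface fish had 25.9, 29.0 and 21.8 at 1 dpi, against 8.05, 10.5 and 7.46 in controls. Injured libraries lay above controls in both forms, by a wide gap in surface fish and by less than 1 unit in cave fish, where control replicate 2, rich in keratinocyte markers, was the high one.

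junba rose at 1 dpi by 1.08 (SE 0.27, limma adjusted p = 0.00951) in cave fish and by 1.46 (SE 0.27, limma adjusted p = 0.00289) in surface fish. The cave call was lost without cave control replicate 3 (0.81, adjusted p = 0.0550) or without cave 1 dpi replicate 3 (0.83, adjusted p = 0.055). Without both libraries rich in keratinocyte markers it was 1.13 (adjusted p = 0.00818). At 7 dpi junba had 12.0 and 15.4 in cave fish and 13.5 and 10.04 in surface fish. Against 1 dpi it fell by 1.095 in cave fish (SE 0.31, limma adjusted p = 0.0361), a call lost in 4 of 20 omissions of a library, while the surface change of -1.06 (SE 0.31, limma adjusted p = 0.0649) was not called. Without the 2 cave libraries rich in keratinocyte markers the cave change was -0.84 (limma adjusted p = 0.0597) and not called. That fit kept all surface libraries, surface 1 dpi replicate 2 among them. The surface change in it was an unchanged -1.06 and was called (limma adjusted p = 0.0218). On unscaled TPM both were called, at -1.55 (limma adjusted p = 0.0162) in cave fish and -1.47 (limma adjusted p = 0.0357) in surface fish.

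junbb (ENSAMXG00000034822), the other JunB counterpart, was called beyond 1 dpi too. In cave fish it had 12.9, 16.9 and 11.8 scaled TPM in controls, 33.0, 40.0 and 36.2 at 1 dpi, 35.2 and 45.3 at 7 dpi, and 19.0 and 76.0 at 14 dpi. In surface fish it had 13.9, 7.47 and 5.97 in controls, 39.0, 28.1 and 31.1 at 1 dpi, 37.0 and 22.1 at 7 dpi, and 13.01 and 14.3 at 14 dpi. Every injured library at 1 and 7 dpi stood above all controls of its form. At 14 dpi the cave libraries also did, 1 of them with the highest junbb level of the series, whereas the surface libraries lay on either side of the highest surface control.

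junbb rose at 1 dpi by 1.34 (SE 0.38, limma adjusted p = 0.0183) in cave fish and by 1.80 (SE 0.38, limma adjusted p = 0.00594) in surface fish. At 7 dpi it was higher by 1.48 (SE 0.43, limma adjusted p = 0.0479) in cave fish and by 1.63 (SE 0.43, limma adjusted p = 0.0439) in surface fish. At 14 dpi the cave change was 1.42 (SE 0.43, limma adjusted p = 0.0478) and the surface change 0.61 (SE 0.43, limma adjusted p = 0.707). The cave value at 14 dpi rested on replicate 2, without which it was 0.45 (adjusted p = 0.552). The 7 dpi calls were lost in 14 of 20 omissions in cave fish and 15 of 20 in surface fish. The 1 dpi cave call was lost in 3 of 20, and without both libraries rich in keratinocyte markers (1.49, adjusted p = 0.0579).

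jund (ENSAMXG00000026133), whose mammalian counterpart is widely expressed in resting cells, was the AP-1 transcript called lower. Cave fish had 9.15, 10.8 and 11.7 scaled TPM at 1 dpi, against 34.2, 17.7 and 29.4 in controls. Surface fish had 13.2, 9.71 and 7.39 at 1 dpi, against 38.9, 18.2 and 27.9 in controls. Injured and control libraries did not overlap in either form, at this stage or later: 7 dpi libraries had 13.8 and 9.15 in cave fish and 14.5 and 4.85 in surface fish, and 14 dpi libraries 12.8 and 16.5 in cave fish and 9.57 and 12.0 in surface fish.

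jund fell at 1 dpi by 1.24 (SE 0.35, limma adjusted p = 0.0177) in cave fish and by 1.37 (SE 0.35, limma adjusted p = 0.0162) in surface fish. At 7 dpi it fell by 1.56 in surface fish (SE 0.39, limma adjusted p = 0.0367), a change of -0.86 (adjusted p = 0.275) without surface 7 dpi replicate 2 and -1.21 (limma adjusted p = 0.0874) on unscaled TPM. The cave change of -1.15 (SE 0.39, limma adjusted p = 0.0855) was not called, and the difference of the responses was 0.41 (SE 0.55, limma adjusted p = 1). On unscaled TPM the 1 dpi changes kept their sign but not their call, at -0.75 (adjusted p = 0.124) in cave fish and -0.64 (adjusted p = 0.157) in surface fish. At 1 dpi the call was lost in 3 of 20 omissions of a library in cave fish and 2 of 20 in surface fish.

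atf3 (ENSAMXG00000038787), a stress-induced factor that in mammals often represses its targets, was called at 1 dpi in surface fish but not in cave fish. In cave fish it had 37.1, 17.5 and 10.9 scaled TPM in controls, 20.4, 15.1 and 21.1 at 1 dpi, 15.1 and 9.57 at 7 dpi, and 11.6 and 7.10 at 14 dpi. In surface fish it had 7.95, 9.95 and 3.34 in controls, 25.0, 31.3 and 24.8 at 1 dpi, 16.3 and 10.1 at 7 dpi, and 2.54 and 7.67 at 14 dpi. All surface 1 dpi libraries stood above their controls, while cave 1 dpi libraries lay inside the spread of theirs.

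atf3 rose by 1.89 in surface fish at 1 dpi (SE 0.43, limma adjusted p = 0.00872), and the cave change was -0.05 (SE 0.43, limma adjusted p = 0.956). The difference between these responses was -1.94 (SE 0.61, limma adjusted p = 0.310) and was not called. The cave control libraries were higher than the surface ones by 1.44 (SE 0.43, limma adjusted p = 0.0501), just outside the threshold. It was called on unscaled TPM (1.65, limma adjusted p = 0.0372) and with replicate numbers as blocks, over all groups or within the control groups, at an unchanged 1.44. Cave control replicate 1 weighed on each of these: without it the cave change was 0.41 (adjusted p = 0.557), the difference between responses -1.48 (adjusted p = 0.476) and that between controls 0.98 (adjusted p = 0.228).

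Fewer subunits were called at 7 and 14 dpi than at 1 dpi. The 7 and 14 dpi groups had 2 libraries each, against 3 at 1 dpi. Their SE was larger, for jund 0.39 against 0.35, so a change of the same size was less readily called. At 7 dpi 2 of 9 were higher in cave fish, where 7.38% of all genes were called (5.36% higher, 2.02% lower). In surface fish 2 were higher and 1 lower, where 4.59% were called (3.11% higher, 1.48% lower). At 14 dpi 2 of 9 were higher in cave fish, where 10.1% of all genes were called (6.22% higher, 3.87% lower). In surface fish at 14 dpi limma called 0 of 9, with 1 at an unadjusted p below 0.05 (jund, -1.26, SE 0.39, adjusted p = 0.295), and 0% of all genes, of which 1593 had an unadjusted p below 0.05. The median change of the 9 was -0.01 in cave fish and 0.40 in surface fish at 7 dpi, and 0.06 and 0.05 at 14 dpi, against medians over all genes between -0.01 and 0.07. Between injured stages, 7 dpi against 1 dpi, fosl1a and junba fell in cave fish, where 9.57% of all genes were called (5.31% lower), and fosl1a and fosl1b in surface fish, where 4.39% were (2.19% lower). The stages of a form share its control libraries, so their values are not independent.

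The order of levels changed with injury. In controls jund led in surface fish, at 28.3 ± 10.3 scaled TPM (SD, n = 3), and its lowest library, at 18.2, stood above every library of the other 8 subunits there. Below it junbb (9.12 ± 4.23), junba (8.67 ± 1.61), fosl2 (8.27 ± 0.825), atf3 (7.08 ± 3.39) and fosab (6.96 ± 5.74) had ranges that all overlapped. In cave controls jund, at 27.1 ± 8.46, was followed by atf3 (21.8 ± 13.6), fosab (16.7 ± 13.2), junba (14.5 ± 6.18), junbb (13.8 ± 2.66) and fosl2 (12.5 ± 11.6), each overlapping its neighbours in this order.

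At 1 dpi junbb (36.4 ± 3.53), fosl2 (35 ± 10.99) and junba (31.5 ± 11.1) led in cave fish with overlapping ranges, with atf3 at 18.9 ± 3.30. In surface fish junbb (32.7 ± 5.64), fosl2 (27.4 ± 3.25), atf3 (27.0 ± 3.69) and junba (25.6 ± 3.63) led with overlapping ranges, fosl1b followed below them at 19.1 ± 2.11, and jund stood at 10.1 ± 2.94. The classical immediate early members had the 2 lowest means at this stage in both forms, fosab at 7.35 ± 1.25 and fosb at 0.961 ± 0.770 in cave fish, and fosab at 7.89 ± 2.65 and fosb at 6.46 ± 7.76 in surface fish.

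A shift is also seen in the make-up of each family's transcript pool, where a share does not depend on the scaling of a library. These shares are descriptions without a test. The Fos-related genes (fosl1a, fosl1b and fosl2) held 84.0% to 90.3% of Fos TPM in cave fish at 1 dpi, against 19.8% to 72.3% in cave controls. Surface fish had 71.5% to 88.1% at 1 dpi, against 39.8% to 69.6% in controls. The 1 dpi and control ranges did not overlap in either form, and the highest cave control share was again that of replicate 2. The shares were 84.6% and 84.8% at 7 dpi and 73.96% and 85.8% at 14 dpi in cave fish. In surface fish they were 79.6% and 92.9% at 7 dpi and 38.2% and 73.0% at 14 dpi, the last pair back across the control range.

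Within the Fos pool fosl1b held 16.0% ± 2.58 in cave fish and 26.4% ± 3.46 in surface fish at 1 dpi (SD, n = 3 each). The summed Fos level was 62.1 ± 7.69 scaled TPM in cave fish at 1 dpi, against 33.5 ± 15.1 in controls, and 73.4 ± 15.7 in surface fish at 1 dpi, against 17.3 ± 7.67 in controls.

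The Jun pool is given here without jun itself. jund held 13.6% ± 0.741 of Jun TPM in cave fish at 1 dpi (SD, n = 3), against 49.0% ± 14.9 in controls, and 14.6% ± 2.34 in surface fish at 1 dpi, against 60.6% ± 9.03 in controls. The highest jund share at 1 dpi was 16.9% and the lowest in controls 31.7%. At 14 dpi the share was 28.9% and 15.1% in cave fish and 29.8% and 33.4% in surface fish, so these libraries lay below every control of their form. The summed Jun level was 78.5 ± 13.8 scaled TPM in cave fish at 1 dpi, against 55.5 ± 4.97 in controls, and 68.4 ± 8.998 in surface fish at 1 dpi, against 46.1 ± 13 in controls.

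**Figure D3:**
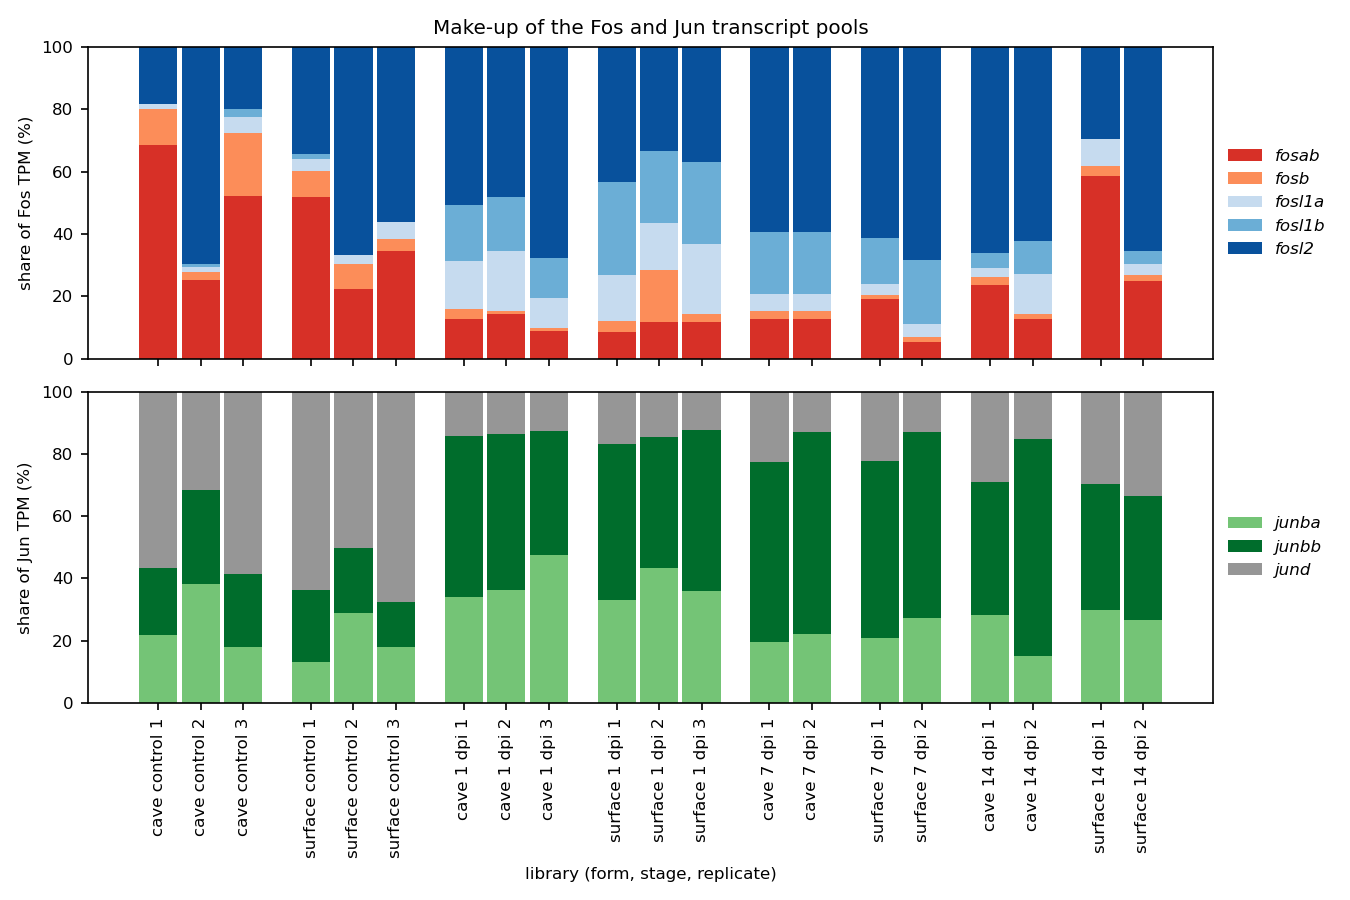
Share of each gene (vertical axes, percent) in the summed TPM of the 5 Fos genes (top) and of the 3 Jun genes found (bottom), with 1 bar per library, grouped by form and stage. Blue Fos-related segments fill most of the Fos pool at 1 dpi, and the grey jund segment is smaller in every 1 dpi library than in any control.

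Only 1 subunit differed by call between the forms at any stage. At 1 dpi fosl1b was lower in cave fish by 0.89 on the log2 scale (-0.89, SE 0.28, limma adjusted p = 0.0497), where 11.6% of all genes were called (4.56% lower). All 3 cave libraries, at 9.17 to 10.4 scaled TPM, lay below all 3 surface libraries, at 16.9 to 21.2. The call was lost in 15 of 20 omissions of a library (adjusted p 0.0194 to 0.140), and the difference of the 1 dpi responses was -1.03 (SE 0.39, limma adjusted p = 0.423). No subunit was called between the forms in controls (8.74% of all genes called), at 7 dpi (4.56%) or at 14 dpi (12.2%). At an unadjusted limma p below 0.05 there were 3, 0 and 2 of 9 at these stages.

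At 14 dpi junbb was the widest apart, cave minus surface 1.42 (SE 0.47, limma adjusted p = 0.0594), and 0.45 without cave 14 dpi replicate 2. None of the 9 subunits was called for a response to injury that differed between the forms at 1, 7 or 14 dpi, where 0.113%, 0.0474% and 0.0296% of all genes were. At an unadjusted limma p below 0.05 there were 3, 1 and 0 subunits. Besides atf3 and fosl1b, fosb was among them at 1 dpi with a difference of -2.33 (SE 0.79, limma adjusted p = 0.351), and -1.51 without surface 1 dpi replicate 2.

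Marker sums of other cell types differed between injured and control muscle as well. The 20 neutrophil marker identifiers summed to 169 to 381 scaled TPM in cave fish at 1 dpi, against 23.5 to 30.4 in controls, and to 129 to 161 in surface fish at 1 dpi, against 21.2 to 28.6 in controls. Per library 2 to 9 of the 20 were at 0. The 21 macrophage identifiers, with 3 to 6 at 0 per library, summed to 532 to 801 in cave fish at 1 dpi, against 213 to 442 in controls, and to 277 to 464 in surface fish, against 378 to 481. The 23 muscle fibre genes summed to 127740 to 198890 in cave fish at 1 dpi, against 266000 to 399710 in controls, and to 55053 to 290130 in surface fish, against 380690 to 553170. The 17 Schwann cell genes, with 1 or 2 at 0 per library, summed to 232 to 253 in cave fish at 1 dpi, against 317 to 398 in controls, and to 179 to 249.7 in surface fish, against 303 to 337. The 21 fibroblast genes, with at most 1 at 0, summed to 1457 to 1680 in cave fish, against 2709 to 3619, and to 687 to 2121 in surface fish, against 1859 to 6571. The 23 endothelial genes, with at most 1 at 0, summed to 205 to 222 in cave fish, against 260 to 328, and to 285 to 312 in surface fish, against 253 to 284. Within each form, muscle fibre and Schwann cell sums were thus lower at 1 dpi than in any control of the same form, like jund. Fibroblast and endothelial sums were so in cave fish only. The 11 erythrocyte genes overlapped between 1 dpi and control libraries in both forms. The part of these markers in the AP-1 changes was not tested.

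Keratinocyte marker sums, with 0 to 3 of 21 identifiers at 0 per library, ran from 817 to 10355 at 1 dpi and from 429 to 2609 in controls in cave fish. Surface fish had 1180 to 2482 at 1 dpi, against 615 to 973 in controls. The 2 cave libraries with the highest sums also had the highest fosl2 and junba levels of their groups. The surface library with the highest sum, 1 dpi replicate 2, had the highest fosl2, junba and fosl1b levels of its group. In fosl1b the cave libraries differed from it: cave 1 dpi replicate 3, with the highest sum of all, had the lowest fosl1b level of its group.

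**Figure D4:**
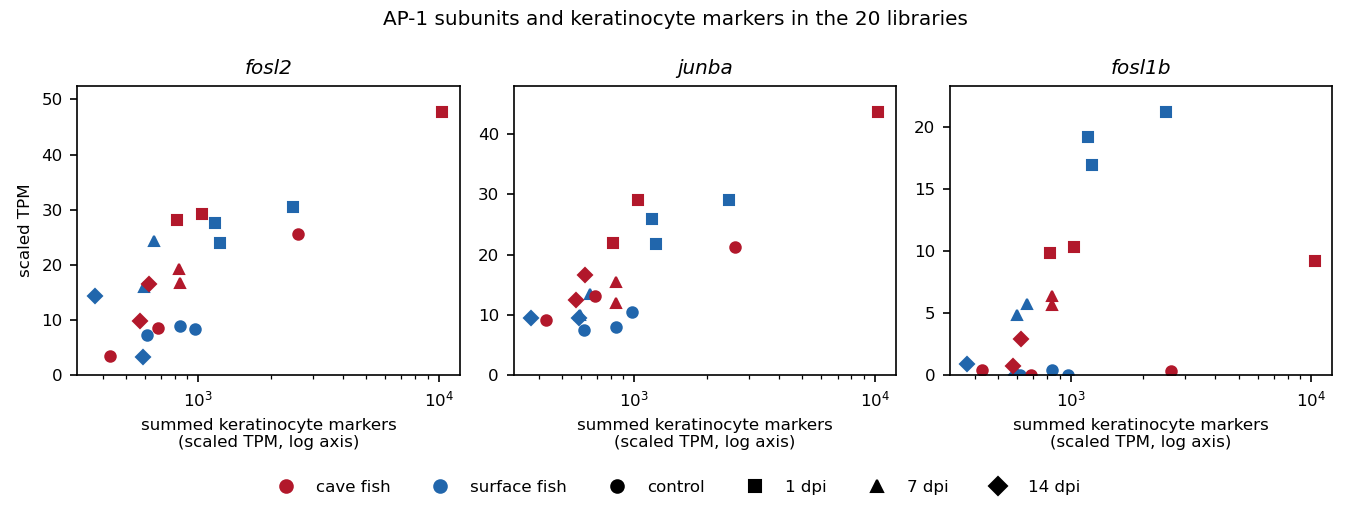
Scaled TPM of fosl2, junba and fosl1b (vertical axes) against the summed scaled TPM of 21 keratinocyte marker identifiers (horizontal log axis) in the 20 libraries. Colours mark the form and shapes the stage. The library farthest right, cave 1 dpi replicate 3, is the highest in fosl2 and junba and the lowest of the 1 dpi libraries in fosl1b.

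Genes around AP-1 in its pathway were counted from lists chosen with earlier results of these data known. Their counts are to be set against the shares of all genes called at 1 dpi, 15.7% higher and 9.07% lower in cave fish and 8.35% and 6.41% in surface fish. At 7 dpi these shares were 5.36% and 2.02% in cave fish and 3.11% and 1.48% in surface fish, and at 14 dpi 6.22% and 3.87% in cave fish and 0% in surface fish. Among 32 AP-1 target genes tested, which are proteases, matrix and growth genes known as targets in mammals, 11 rose and 1 fell in cave fish at 1 dpi, and 8 rose and 2 fell in surface fish. The median changes were 0.39 and 0.46, against 0.04 and 0.02 for all genes. On unscaled TPM 13 rose and 0 fell in cave fish and 16 rose and 0 fell in surface fish, with medians of 0.86 and 1.16, against 0.40 and 0.57 for all genes. Of all 16884 genes tested, 4307 then rose and 219 fell in cave fish, and 5783 and 190 in surface fish. At 7 dpi 3 rose and 0 fell in cave fish, and 1 rose and 1 fell in surface fish. At 14 dpi the counts were 4 and 1 in cave fish and 0 and 0 in surface fish. The neutrophil marker list holds 2 of these symbols too. For the difference of the 1 dpi responses between the forms, 0 genes of any of the 6 lists were called, where 0.113% of all genes were. A call in only 1 form, here or below, is thus no called difference of the responses.

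anxa2a, an annexin that binds membranes and promotes plasmin formation, rose in both forms. It averaged 392 ± 51.7 scaled TPM in cave fish at 1 dpi, against 55.6 ± 23.3 in controls (log2 change 2.88, limma adjusted p = 0.000113), and 156 ± 24.8 in surface fish at 1 dpi, against 26.8 ± 11.6 in controls (2.56, limma adjusted p = 0.000924). timp2b, an inhibitor of matrix metalloproteinases, rose by 2.197 in cave fish (limma adjusted p = 3.72e-05) and had a change of 0.62 in surface fish (limma adjusted p = 0.133). The related timp2a, also on the list, fell by 0.74 in cave fish (limma adjusted p = 0.00629) and by 0.82 in surface fish (limma adjusted p = 0.00605). tgfb1b, a growth factor of scar formation and immune control, rose by 1.76 in cave fish (limma adjusted p = 0.000335) and had a change of 0.77 in surface fish (limma adjusted p = 0.0773). The levels at 1 dpi were higher in cave than in surface fish by 1.86 for timp2b (limma adjusted p = 0.000346), 1.21 for tgfb1b (limma adjusted p = 0.0115) and 1.33 for anxa2a (limma adjusted p = 0.0437). The difference of the responses to injury was 1.57 for timp2b (limma adjusted p = 0.167), 0.99 for tgfb1b (limma adjusted p = 0.438) and 0.31 for anxa2a (limma adjusted p = 0.919), none of them called.

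Other immediate early genes, such as the Egr, Nr4a, Klf and Ccn genes, went down more often than up by call. Of 42 tested, 6 rose and 10 fell in cave fish at 1 dpi, and 2 rose and 7 fell in surface fish, where 15.7% of all genes rose and 9.07% fell in cave fish and 8.35% and 6.41% in surface fish, with list medians of -0.52 and -0.18. At 7 dpi 3 rose and 7 fell in cave fish, and 0 rose and 5 fell in surface fish. At 14 dpi 2 rose and 11 fell in cave fish, and 0 and 0 in surface fish. These directions depend on the scaling: on unscaled TPM 7 rose and 4 fell in cave fish at 1 dpi and 12 rose and 2 fell in surface fish. Of all 16884 genes, 4307 then rose and 219 fell in cave fish, and 5783 and 190 in surface fish. The unscaled list medians of -0.06 and 0.47 were below those of all genes, 0.40 and 0.57.

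egr2b, a zinc finger factor that is also on the Schwann cell marker list, fell by 1.09 in cave fish at 1 dpi (limma adjusted p = 0.000423) and had a change of -0.34 in surface fish (limma adjusted p = 0.234). zfp36l2, which promotes messenger RNA decay, fell by 0.93 in cave fish (limma adjusted p = 0.000555) and by 0.52 in surface fish (limma adjusted p = 0.0371). A second identifier on the list, named ZFP36L2, was not called. Its changes were 0.08 in cave fish (limma adjusted p = 0.790) and 0.04 in surface fish (limma adjusted p = 0.922). ccn1l2, a gene of the family of secreted matricellular proteins, fell by 1.42 in cave fish (limma adjusted p = 0.000876) and had a change of -0.39 in surface fish (limma adjusted p = 0.345).

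Upstream lies the MAP kinase cascade. Of 35 genes tested, 4 rose and 2 fell in cave fish at 1 dpi and 1 rose and 4 fell in surface fish, with medians of 0.12 and 0.01, and 24.8% of all genes were called in cave fish and 14.8% in surface fish. mapk12a, a p38-type kinase, rose by 1.68 in cave fish (limma adjusted p = 0.00332) and had a change of 0.46 in surface fish (limma adjusted p = 0.443). rps6ka1, a kinase acting at the end of the cascade, rose by 1.22 in cave fish (limma adjusted p = 0.00489) and had a change of 0.68 in surface fish (limma adjusted p = 0.115). On unscaled TPM 9 rose and 1 fell in cave fish and 12 rose and 0 fell in surface fish, with medians of 0.51 and 0.58. Of all 16884 genes, 4307 then rose and 219 fell in cave fish, and 5783 and 190 in surface fish. At 7 dpi 1 rose and 0 fell in cave fish and 0 and 0 in surface fish, and at 14 dpi 1 rose and 1 fell in cave fish and 0 and 0 in surface fish.

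Of 8 MAP kinase phosphatases, which switch these kinases off, 2 rose and 3 fell in cave fish at 1 dpi, and 0 rose and 2 fell in surface fish, where 9.07% and 6.41% of all genes fell, with medians of -0.48 and -0.39. dusp6, a cytoplasmic member, fell by 0.89 in cave fish (limma adjusted p = 0.00243) and by 0.63 in surface fish (limma adjusted p = 0.0302). dusp16, which acts on JNK and p38, fell by 1.32 in cave fish (limma adjusted p = 0.00510) and had a change of -0.78 in surface fish (limma adjusted p = 0.0985). dusp7 had a change of -0.72 in cave fish (limma adjusted p = 0.0610) and fell by 1.24 in surface fish (limma adjusted p = 0.00641). Afterwards 1 more call was made in each form, a fall at 14 dpi in cave fish and a fall at 7 dpi in surface fish.

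The serum response arm, meaning serum response factor and its cofactors, was listed together with ets1 and ETS2. In cave fish at 1 dpi 0 of 7 identifiers tested rose and 1 fell, where 9.07% of all genes fell. In surface fish 0 rose and 2 fell, where 6.41% of all genes fell. The medians were -0.26 and -0.49, with 0 calls at 7 and 14 dpi. mrtfab, a cofactor of the myocardin type, had a change of -0.69 in cave fish (limma adjusted p = 0.0635) and fell by 1.14 in surface fish (limma adjusted p = 0.00864). mrtfbb fell by 0.92 in cave fish (limma adjusted p = 0.0162) and had a change of -0.66 in surface fish (limma adjusted p = 0.0975). srfb is the name of 2 identifiers. One (ENSAMXG00000036408) had a change of -0.57 in cave fish (limma adjusted p = 0.122) and fell by 0.84 in surface fish (limma adjusted p = 0.0382), and the other had changes of -0.26 (limma adjusted p = 0.322) and -0.49 (limma adjusted p = 0.0772), not called.

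Partner leucine zipper factors, which can pair with Fos or Jun proteins or bind related sites, were counted last. Of 17 tested, 1 rose and 2 fell in cave fish at 1 dpi and 0 rose and 0 fell in surface fish, where 24.8% and 14.8% of all genes were called, with medians of -0.0022 and -0.07. mafba, a factor of macrophage development in mammals, rose by 1.15 in cave fish (limma adjusted p = 0.0170) and had a change of 0.68 in surface fish (limma adjusted p = 0.181). ddit3, a factor of the unfolded protein response, fell by 0.67 in cave fish (limma adjusted p = 0.00978) and had a change of -0.38 in surface fish (limma adjusted p = 0.151). cebpd, an acute-phase factor, fell by 1.31 in cave fish (limma adjusted p = 0.0357) and had a change of -0.20 in surface fish (limma adjusted p = 0.812). At 14 dpi 0 rose and 3 fell in cave fish, with 0 calls in surface fish and 0 in both forms at 7 dpi. On unscaled TPM the falls at 1 dpi were lost: 3 partner factors, 2 phosphatases and 1 gene of the serum response arm rose and 0 fell in cave fish. In surface fish 4, 1 and 1 rose and 0 fell. Falls were few in that setting over all 16884 genes too, 219 against 4307 rises in cave fish and 190 against 5783 in surface fish. Without the 2 cave libraries rich in keratinocyte markers the cave counts at 1 dpi were 10 up and 1 down for AP-1 targets, 3 and 9 for other immediate early genes, 3 and 2 for the MAP kinase cascade, 0 and 3 for the phosphatases, 0 and 1 for the serum response arm and 0 and 0 for the partner factors. Over all 16884 genes 1770 were up and 836 down in that setting.

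**Figure D5:**
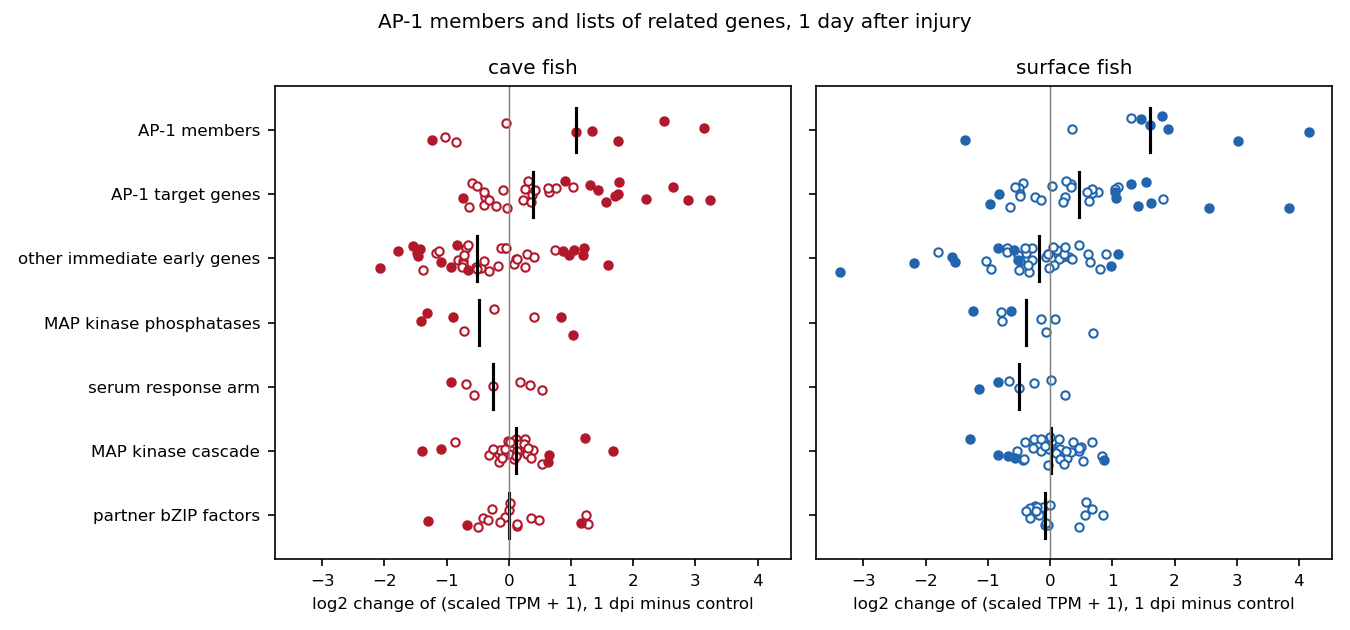
Change at 1 dpi against saline controls (horizontal axes, difference of log2(scaled TPM + 1)) of the AP-1 subunits and of 6 lists of related genes, in cave fish (left, red) and surface fish (right, blue). Each point is a gene, filled where it passed the adjusted threshold, and black ticks are list medians. The AP-1 subunits have the highest median of the lists shown, 1.08 in cave fish and 1.61 in surface fish. These medians include fosl1a and fosl1b, which passed the filter only through injured libraries. Of the other subunits in cave fish, fosab (-0.85), fosb (-1.03), jund (-1.24) and atf3 (-0.05) lie below 0. The cave changes of fosl2 (1.75), junba (1.08) and junbb (1.34) lie above 0.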

How the data were processed

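RNA sequencing of skeletal muscle gave 20 libraries in 8 groups of form and stage, grouped from the sample labels. Per the labels, stranded polyadenylated RNA libraries were read as single 75-base reads. The authors' deposited table holds TPM per gene, made with STAR 2.7.3a and RSEM 1.3.0 per the submitters' processing notes. Genome build and annotation: not given in the sources used here. Hence no position or sequence is printed. Deposited TPM sum to 1000000 in every library, so depth is unknown and no counting interval was computed.

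TPM were scaled with 1 median-of-ratios factor per library, obtained from 9467 genes that reached 1 TPM in each library. The filter asked for 1 TPM or more in 2 libraries or more, and log2(scaled TPM + 1) was fitted with limma 3.58.1 in R 4.3.3: 1 mean per group, 12 residual degrees of freedom, a moderated test with a mean-variance trend, and 15 contrasts. Benjamini-Hochberg adjustment ran over all 16884 genes. The procedure was tested on simulated data with changes set only in surface 1 dpi libraries and only in genes of higher mean level. Changes of genes near 0 and in groups of 2 libraries were not covered. The smallest exact two-sided p is 0.1 for 3 libraries against 3 and 0.2 for 2 against 3, so single genes were tested only in this model.

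The subunits and lists were chosen with earlier results of these data known. List symbols were matched without regard to case. All subunits are named. Of each list the 3 genes with the smallest adjusted p at 1 dpi in either form are named, and for each subunit the 2 named genes of most similar profile. One gene that this rule picks is not reported here. Alternatives were a pseudocount of 0.1, no filter, unscaled TPM, a fit of the compared groups only, replicate numbers as blocks, leaving out each library, and, chosen after seeing the data, leaving out the 2 cave libraries rich in keratinocyte markers. Deviations from group means correlated at 0.137, 0.108 and 0.235 between surface control and surface 1 dpi libraries of the same replicate number. No label states a pairing, and these values do not show one. Libraries of different forms and numbers reached 0.333, in surface 1 dpi replicate 2 with cave 1 dpi replicate 3. Between cave controls and cave 1 dpi libraries of the same number the values were 0.082, -0.199 and -0.265. Over all groups the median was 0.0288 for 62 pairs with the same number and -0.0179 for 112 pairs with different numbers.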

Additional observations from a re-analysis of the deposited data

How the results depend on the processing

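Counts of called subunits were recomputed under each alternative, and where values moved the cause was not tested. Not every count that moved is listed. The 44 subunit changes followed include changes that were not called as reported and so had no call to lose. The calls lost were 6 with a pseudocount of 0.1 and 7 without the filter. They were 7 on unscaled TPM, 9 with the compared groups alone and 4 with a replicate block over all groups. Among the changes followed, 3 calls were gained and 1 sign turned on unscaled TPM, and 1 call was gained with that block. Without the 2 cave libraries rich in keratinocyte markers 7 were lost. With a pseudocount of 0.1 the counts were 1 in cave fish at 7 dpi (2 as reported), 0 in cave fish at 14 dpi (2), 0 between the forms at 1 dpi (1) and 1 for surface 7 against 1 dpi (2). Without the filter they were 1 in cave and 1 in surface fish at 7 dpi (3 as reported), 0 in cave fish at 14 dpi and 0 between the forms at 1 dpi. On unscaled TPM they were 5 in cave fish at 1 dpi (6), 2 in surface fish at 7 dpi, 3 for surface 7 against 1 dpi, 1 in cave fish at 7 dpi, 0 in cave fish at 14 dpi, and between the forms 1 in controls (atf3, 0 as reported), 0 at 1 dpi and 1 at 14 dpi (0). Fitting the compared groups alone gave 0 in surface fish at 7 dpi and 0 in cave fish at 14 dpi. With a replicate block over all groups the counts were 1 in cave fish at 7 dpi, 0 in cave fish at 14 dpi and 1 between control groups. With the replicate block within the 2 compared groups they were 1 between controls and 0 between the forms at 1 dpi. Without the 2 cave libraries rich in keratinocyte markers they were 1 in cave fish at 7 dpi, 0 at 14 dpi, 0 between the forms at 1 dpi and 1 for cave 7 against 1 dpi (2). In that setting junbb also lost its call in cave fish at 1 dpi (limma adjusted p = 0.0579) and in surface fish at 7 dpi (limma adjusted p = 0.0640). For surface 7 against 1 dpi, where no library was left out, junba gained a call at an unchanged -1.06 (limma adjusted p = 0.0218).

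Leaving out 1 library at a time gave 2 to 6 calls in cave fish at 1 dpi (2 without cave control replicate 3), 1 to 3 at 7 dpi and 0 to 3 at 14 dpi. Surface fish had 5 to 7 at 1 dpi, 1 to 3 at 7 dpi and 0 to 0 at 14 dpi. Between the forms the range was 0 to 1 in controls, 0 to 1 at 1 dpi, 0 to 0 at 7 dpi and 0 to 3 at 14 dpi, and for responses that differed it was 0 to 0 at each stage. For 7 against 1 dpi it was 1 to 2 in cave and 1 to 3 in surface fish. The number of all genes called in each omission is not given here. These ranges therefore cannot set a loss of subunit calls apart from a loss of calls over all genes. The calls of fosl1a at 1 dpi and of fosl1b at 1 and 7 dpi in both forms, and of junba, junbb and atf3 in surface fish at 1 dpi, were kept in all 20 omissions. The sign turned for atf3 in cave fish at 1 dpi on unscaled TPM (0.45) and without cave control replicate 1 or cave 1 dpi replicate 2 (0.098), with a range of -0.43 to 0.41 over all omissions. It turned for fosab in surface fish at 1 dpi without surface control replicate 2 (-0.055 to 0.91) and for fosl1b in surface fish at 14 dpi without surface 14 dpi replicate 2 (-0.17 to 0.78). It also turned for the form differences of the response of jund at 7 dpi without surface 7 dpi replicate 2 (-0.29 to 1.12) and of junbb at 14 dpi without cave 14 dpi replicate 2 (-0.16 to 1.78).

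With a replicate block within the 2 groups, fosl2 in surface fish at 1 dpi was not called (adjusted p = 0.0653). Over all genes, 5973 were called in surface fish at 1 dpi on unscaled TPM and 1098 with those groups fitted alone, against 2492. At 7 dpi in surface fish 13 were called with those groups alone, against 775, and in cave fish at 1 dpi 2606 without the 2 keratinocyte-rich libraries, against 4191. In cave fish at 7 dpi 564 were called on unscaled TPM and 751 without those 2 libraries, against 1246, and at 14 dpi 518 on unscaled TPM, 0 with those groups alone and 916 without the 2 libraries, against 1703. In surface fish at 14 dpi 12 were called with a pseudocount of 0.1 and 15 without the filter, against 0. Between the forms, cave minus surface, 948 genes were called in controls on unscaled TPM and 592 with those groups alone (1475 as reported), 1262 at 1 dpi without the 2 libraries (1964), 500 at 7 dpi on unscaled TPM and 215 with those groups alone (770), and 24 at 14 dpi with those groups alone (2053). For surface 7 against 1 dpi 69 were called with those groups alone, against 741. Responses that differed between the forms numbered 7 to 32 at 1 dpi (19), 2 to 29 at 7 dpi (8) and 2 to 19 at 14 dpi (5) over these settings. Depth is unknown, so values near 0, such as fosl1b in controls, have no detection limit.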

Other observations

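Each subunit had other genes with a similar profile over the 20 libraries, taken as the 2 named genes with the highest Pearson r of log2 scaled TPM. These correlations are descriptions over 20 libraries that share the injury groups, and they say nothing of shared control. The closest were bxdc2 and pwp2h for fosl1b (r = 0.95 each), whose yeast counterparts act in ribosome assembly, and selp, the endothelial adhesion molecule P-selectin, and gmppb for fosl1a (r = 0.95 each). bxdc2 averaged 12.1 ± 1.06 scaled TPM in cave fish at 1 dpi (SD, n = 3), against 3.15 ± 0.307 in cave controls, and 15.3 ± 0.731 in surface fish at 1 dpi, against 3.54 ± 0.422 in surface controls. fosl2 went with ywhaz (r = 0.93) and rab3il1 (r = 0.93), and junba with flna, the actin cross-linker filamin A (r = 0.95), and itpkcb (r = 0.94). ywhaz and flna, like fosl2 and junba, varied widely among cave 1 dpi libraries, at 75.0 ± 32.2 and 113 ± 42.5 scaled TPM. junbb went with E2F3 (r = 0.93), a factor of cell cycle entry, and tuba8l3 (r = 0.92).

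The falling and the uneven subunits had other neighbours. jund went with NR4A1 (r = 0.88), an orphan nuclear receptor and immediate early gene, and pcolceb (r = 0.85). NR4A1 averaged 54.1 ± 9.96 scaled TPM in cave fish at 1 dpi, against 132.5 ± 67.9 in cave controls, and 31.8 ± 17.0 in surface fish at 1 dpi, against 339.5 ± 171 in surface controls. atf3 went with krt18a.1 (r = 0.84), one of the keratinocyte markers used here, and crip1 (r = 0.82). In cave fish at 1 dpi krt18a.1 did not follow the summed markers. It averaged 99.3 ± 3.26 scaled TPM there, while the keratinocyte sums ran from 817 to 10355. fosab went with arrdc3a (r = 0.82) and CALD1 (r = 0.79), and fosb with myo1ca (r = 0.81) and si:ch73-335l21.4 (r = 0.80). Among the subunits themselves, deviations from the group means correlated at 0.75 between fosl1b and junbb, 0.74 between fosl2 and junba, 0.71 between fosl1a and junbb, and 0.67 between fosab and jund. All of these values lean on few libraries. In the surface 7 dpi libraries fosab deviated by 0.97 and jund by 0.70 on either side of the mean. In fosl1a, fosl1b and junbb the largest deviations were those of the cave 14 dpi libraries, at 0.80, 0.59 and 0.97 on either side of the mean. In fosl2 and junba they were those of cave control replicates 2 and 3, at 1.36 and -1.24 for fosl2 and 0.60 and -0.54 for junba.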
